A study of Rattus norvegicus with 12 samples.

Results

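The genes described here are 10 markers of macrophages, out of 30560 genes listed, measured in the hearts of 12 rats. They were picked out by gene symbol, from a list drawn up with earlier results of these data known, and all 10 were in the table and among the 18182 genes with enough reads to be tested. Cd68, Csf1r and Adgre1 mark macrophages in general. Cd163, Mrc1 and Lyve1 are grouped here as resident-type markers, and Trem2, Gpnmb, Spp1 and Lgals3 as lipid-handling and scar-associated markers. The data do not show whether resident or recruited macrophages made these transcripts. The male Wistar rats were 7 weeks old at surgery. The Sham group (4 rats) had the chest opened without an infarct and received vehicle. The MI group (4 rats) had a permanent ligation of the left anterior descending coronary artery, which causes a myocardial infarction, and received vehicle. The MI + UA group (4 rats) had the same ligation and received Urolithin A, a gut microbial metabolite of dietary ellagitannins, by gavage from a preparation of 50 mg/ml, with treatment lasting 8 weeks. RNA came from 20 µm sections of formalin-fixed, paraffin-embedded tissue of the middle region of the heart, with 1 library per rat, so every cell type in the section contributed.

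The healthy heart holds macrophages that settle early in life and renew in place. They carry scavenger receptors, take up debris and sit along vessels and between muscle cells. After an infarct, monocytes enter the wounded wall and become macrophages that clear dead cells, store lipid and take part in scar formation, and many of these cells switch on a programme that includes Trem2, Gpnmb, Spp1 and Lgals3. Gpnmb, Spp1 and Lgals3 are not made by macrophages alone, since fibroblasts and other cells of a scar can also express them, and Lyve1 is also a marker of lymphatic vessels. In bulk samples such as these, fewer cells of a type and less RNA per cell cannot be told apart.

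Each Sham rat had between 6228706 and 8958828 reads on genes, each MI rat between 6829591 and 12743184, and each MI + UA rat between 6819444 and 19031695. The 13 mitochondrially encoded genes took from 50.2% to 58.6% of them, which left less depth for genes at a low level such as Trem2. Levels are given as CPM, that is, read counts divided by the TMM-scaled depth of the library, and are compared between rats for the same gene, not between genes, since they are not divided by transcript length. Values of single rats are listed in the order 12, 17, 32 and 38 for Sham, 36, 57, 61 and 89 for MI, and 29, 58, 64 and 66 for MI + UA. Changes are log2 fold changes from edgeR's quasi-likelihood test, with Benjamini-Hochberg adjusted p-values over all 18182 genes and a threshold of 0.05. Rat 66 was labelled as MI + UA but is listed elsewhere in the study's material with the vehicle-treated MI rats. It was kept in MI + UA, and counting it in MI left the number of markers past the threshold as it was in each comparison. No batch is given for the libraries, so batches could not be examined.

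The start regions of 3 lipid and scar-associated markers and 1 resident-type marker are shown because they differ in the short motifs they hold. Each runs from 250 bases before to 50 bases after the gene's start in RefSeq on the GRCr8 build, 5′ to 3′ in the direction of the gene, and capitals mark the motifs described after them. Gpnmb lies at chr4:79340878-79341177 (plus strand), Trem2 at chr9:20151730-20152029 (minus strand), Spp1 at chr14:5619755-5620054 (minus strand) and Cd163 at chr4:158770524-158770823 (plus strand).
Gpnmb: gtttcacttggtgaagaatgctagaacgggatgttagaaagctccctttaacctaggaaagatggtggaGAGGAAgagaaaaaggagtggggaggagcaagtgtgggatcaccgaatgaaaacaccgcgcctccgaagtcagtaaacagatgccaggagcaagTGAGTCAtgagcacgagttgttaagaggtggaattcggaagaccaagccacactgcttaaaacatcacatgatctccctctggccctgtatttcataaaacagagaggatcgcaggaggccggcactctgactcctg
Trem2: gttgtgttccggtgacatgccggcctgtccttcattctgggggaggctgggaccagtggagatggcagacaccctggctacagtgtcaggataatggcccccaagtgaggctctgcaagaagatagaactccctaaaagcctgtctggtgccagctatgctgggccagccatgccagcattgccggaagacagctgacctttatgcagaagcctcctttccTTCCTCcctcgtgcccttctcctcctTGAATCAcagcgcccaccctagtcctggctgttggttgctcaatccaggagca
Spp1: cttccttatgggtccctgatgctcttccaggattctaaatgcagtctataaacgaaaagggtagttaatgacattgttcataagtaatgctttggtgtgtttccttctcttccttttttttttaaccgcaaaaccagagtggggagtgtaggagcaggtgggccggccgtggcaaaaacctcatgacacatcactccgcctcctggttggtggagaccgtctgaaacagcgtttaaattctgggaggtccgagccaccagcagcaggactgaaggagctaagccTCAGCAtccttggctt
Cd163: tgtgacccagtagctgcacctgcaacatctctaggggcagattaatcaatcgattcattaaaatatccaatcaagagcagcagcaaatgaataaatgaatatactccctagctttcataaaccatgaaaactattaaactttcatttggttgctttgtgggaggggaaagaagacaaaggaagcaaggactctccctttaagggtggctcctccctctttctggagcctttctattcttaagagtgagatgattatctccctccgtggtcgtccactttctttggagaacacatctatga

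These windows were searched on both strands for 4 strings of letters. GAGGAA is the core of sites for PU.1, the factor that drives the macrophage lineage. It was found in 6 of the 9 markers with an entry (Cd68, Csf1r, Adgre1, Mrc1, Trem2 and Gpnmb) and in 27.6% of all 33469 promoters of the same length. TGANTCA, a loose form of the site of AP-1 factors with any base at N, was in 3 of the 9 (Cd68, Trem2 and Gpnmb), against 7.3% of all promoters. The match read TGAGTCA in Cd68 and Gpnmb but TGAATCA in Trem2. In Gpnmb the GAGGAA match began 181 bases before the gene's start and the AP-1 match 87 bases before it, while in Trem2 they began 29 bases and 3 bases before it. TGCTGA, part of the site of MAF factors, was in 3 of the 9 (Cd68, Adgre1 and Spp1), against 18.4% of all promoters, and CACGTG, an E-box bound by MITF and related factors, was in 0 of the 9 against 6.4%. Cd163 and Lyve1 held none of the 4 strings in this window, and Spp1 held the MAF string alone of the 4. No match overlapped another in these windows. These matches describe the letters in the window and say nothing of which factor binds there.

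**Figure D1:**
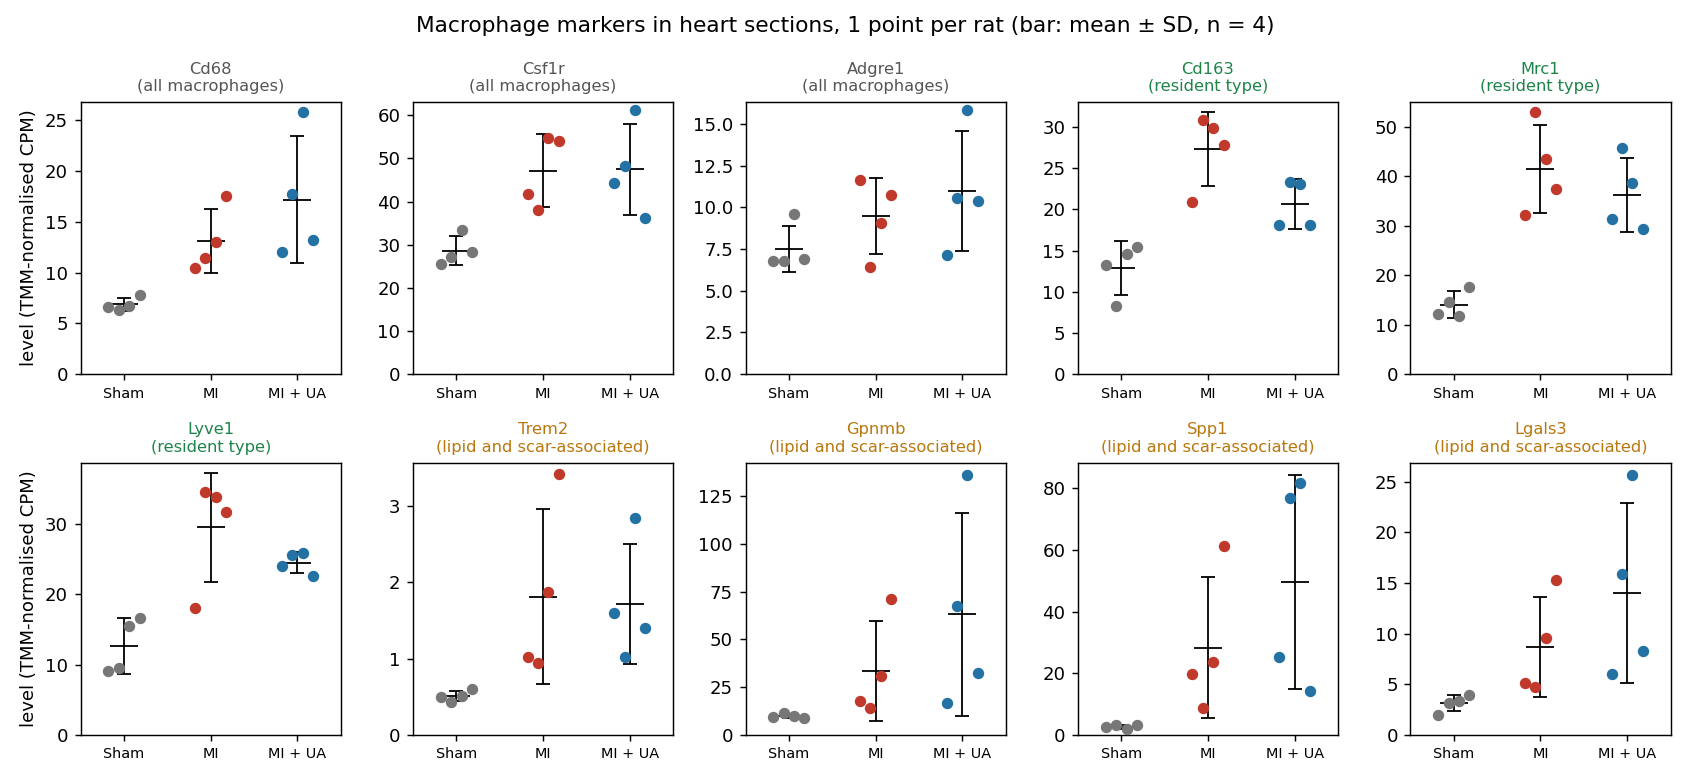
Level of each of the 10 markers in TMM-normalised CPM (y axis, starting at 0) for the Sham, MI and MI + UA rats (x axis), with 1 point per rat and bars for the mean ± SD of 4 rats. For Gpnmb the Sham rats sit between 9.06 and 11.3 CPM, while the MI + UA rats spread from 16.9 to 136 CPM.

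In MI versus Sham, 9 of the 10 markers rose, and only Adgre1 did not pass the test. All 3 resident-type markers and all 4 lipid and scar-associated markers were among them. Across all genes, 5.82% were called higher in this comparison. The MI rats were all above the Sham rats at the same 9 markers, which held for 8.13% of all genes. The median log2 fold change of the 10 was 1.36, against 0.026 over all genes tested. Spp1 had the largest log2 fold change of the 10, at 3.41, and Csf1r the smallest of the 9 called, at 0.73.

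Among the general markers, Cd68 (ENSRNOG00000037563) encodes a lysosomal glycoprotein of phagocytes. Its level was 6.65, 6.35, 6.73 and 7.75 CPM in the Sham rats and 10.5, 11.4, 12.97 and 17.5 CPM in the MI rats. The lowest MI rat was above the highest Sham rat. The log2 fold change was 0.93 (standard error 0.22, edgeR adjusted p = 0.00840).

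Csf1r (ENSRNOG00000018414) encodes the receptor for the growth factors CSF1 and IL-34, on which most tissue macrophages depend. It was at 25.6, 27.1, 33.3 and 28.4 CPM in Sham and at 41.8, 38.1, 54.7 and 53.9 CPM in MI, again without overlap. Its log2 fold change of 0.73 had a standard error of 0.15 (edgeR adjusted p = 0.00224).

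Adgre1 (ENSRNOG00000046254) encodes the adhesion receptor known as F4/80. It stood at 6.77, 6.78, 9.59 and 6.91 CPM in Sham and at 11.6, 6.43, 9.03 and 10.8 CPM in MI. The groups overlapped, since rat 57 of the MI group had the lowest value of the 8 and rat 32 of the Sham group exceeded 2 MI rats, and the MI rat was higher in 11 of the 16 pairs. The log2 fold change of 0.37 (95% interval -0.087 to 0.83) did not pass the test (edgeR adjusted p = 0.331).

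The 3 resident-type markers rose by 1.07 to 1.54 on the log2 scale, with no overlap between the groups. Cd163 (ENSRNOG00000010253), the scavenger receptor for complexes of haemoglobin and haptoglobin, was at 13.3, 8.23, 14.6 and 15.5 CPM in Sham and at 20.9, 30.9, 29.9 and 27.9 CPM in MI. Every MI rat exceeded every Sham rat, and the log2 fold change was 1.07 (standard error 0.17, edgeR adjusted p = 0.000216). Mrc1 (ENSRNOG00000018251), the mannose receptor also called CD206, was at 12.2, 14.6, 11.8 and 17.6 CPM in Sham and at 32.2, 53.0, 43.6 and 37.5 CPM in MI.

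The mannose receptor gene had the smallest p-value of the 10 markers in this comparison. Its log2 fold change was 1.54 (standard error 0.17, edgeR adjusted p = 5.45e-06), a rise of 2.91-fold. Lyve1 (ENSRNOG00000063592), a hyaluronan receptor, was at 9.03, 9.52, 15.5 and 16.7 CPM in Sham and at 18.1, 34.7, 33.8 and 31.8 CPM in MI. Rat 36 was the lowest MI rat and lay just above the highest Sham rat. The log2 fold change of Lyve1 was 1.21 (standard error 0.20, edgeR adjusted p = 0.000367).

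Because lymphatic vessels also express Lyve1, their other markers were examined. Of Prox1, Flt4, Pdpn and Reln, 2 rose (5.82% of all genes did), 1 fell (5.53% of all genes did) and 1 did not pass the test, none was at 0 in a whole group, and their summed level ranged from 87.2 to 105 CPM in Sham and from 83.7 to 97.4 CPM in MI. Prox1, a transcription factor gene used here as a lymphatic marker, fell in MI (log2 fold change -0.45, edgeR adjusted p = 0.00967). Flt4 had a log2 fold change of 0.46 and Reln of 0.66. Prox1, at 58.6 to 70.7 CPM in Sham and 36.4 to 55.0 CPM in MI, made up most of the sum, which therefore does not show how the other markers moved. Flt4 and Reln were higher in the MI rat in all 16 pairs. The part of lymphatic vessels in the Lyve1 result was not tested.

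The 4 lipid and scar-associated markers rose with larger standard errors, from 0.45 to 0.63, than the 3 resident-type markers, from 0.17 to 0.20. Trem2 (ENSRNOG00000013578), a lipid-sensing receptor, had few reads, with 3 to 5 in each Sham rat and 6 to 42 in each MI rat. Its level was 0.502, 0.433, 0.505 and 0.596 CPM in Sham and 1.02, 0.941, 1.87 and 3.42 CPM in MI. The groups did not overlap, and the log2 fold change was 1.84 (standard error 0.49, edgeR adjusted p = 0.0178).

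Gpnmb (ENSRNOG00000008816), a transmembrane glycoprotein of lysosomes and the cell surface, was steady in Sham, at 9.53, 11.3, 9.76 and 9.06 CPM. In MI it was at 17.5, 14.1, 30.6 and 71.4 CPM, so that the highest MI rat, rat 89, had more than any other MI rat by a wide margin. The log2 fold change was 1.78 (standard error 0.54, edgeR adjusted p = 0.0364).

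Spp1 (ENSRNOG00000043451) encodes osteopontin, a secreted matrix protein that binds integrins and CD44. It went from 2.51, 3.17, 1.85 and 3.22 CPM in Sham to 19.7, 8.62, 23.7 and 61.2 CPM in MI. Even the lowest MI rat, rat 57, was above all Sham rats, and the log2 fold change was 3.41, or 10.6-fold (standard error 0.63, edgeR adjusted p = 0.00115). Without rat 89 it was 2.70, and it ranged from 2.70 to 3.67 over the alternatives.

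Lgals3 (ENSRNOG00000010645) encodes galectin-3, a lectin secreted by activated macrophages. Its level was 2.01, 3.17, 3.37 and 3.93 CPM in Sham and 5.12, 4.70, 9.55 and 15.3 CPM in MI. The MI rats lay above the Sham rats, and the estimated change on the log2 scale was 1.503 (standard error 0.45, edgeR adjusted p = 0.0333).

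Several of these calls were lost when 1 rat was left out. Without rat 89, Trem2, Gpnmb and Lgals3 no longer passed the test, with log2 fold changes of 1.31, 1.08 and 1.06 (edgeR adjusted p = 0.111, 0.217 and 0.161), and 6 of the 10 markers were called. Gpnmb and Lgals3 also lost the call without MI rat 61 and without any 1 of the Sham rats, and DESeq2 gave Gpnmb an adjusted p of 0.0528. Calls over all genes, in either direction, also fell in these leave-one-out fits. They went from 2064 to between 1498 and 1751 without a Sham rat, 1467 without rat 61 and 1545 without rat 89. Over all the alternatives the adjusted p ranged from 0.000860 to 0.217 for Gpnmb, from 0.00169 to 0.161 for Lgals3 and from 0.00707 to 0.111 for Trem2. Spp1, the 3 resident-type markers, Cd68 and Csf1r kept the call in each of the 15 alternatives.

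**Figure D2:**
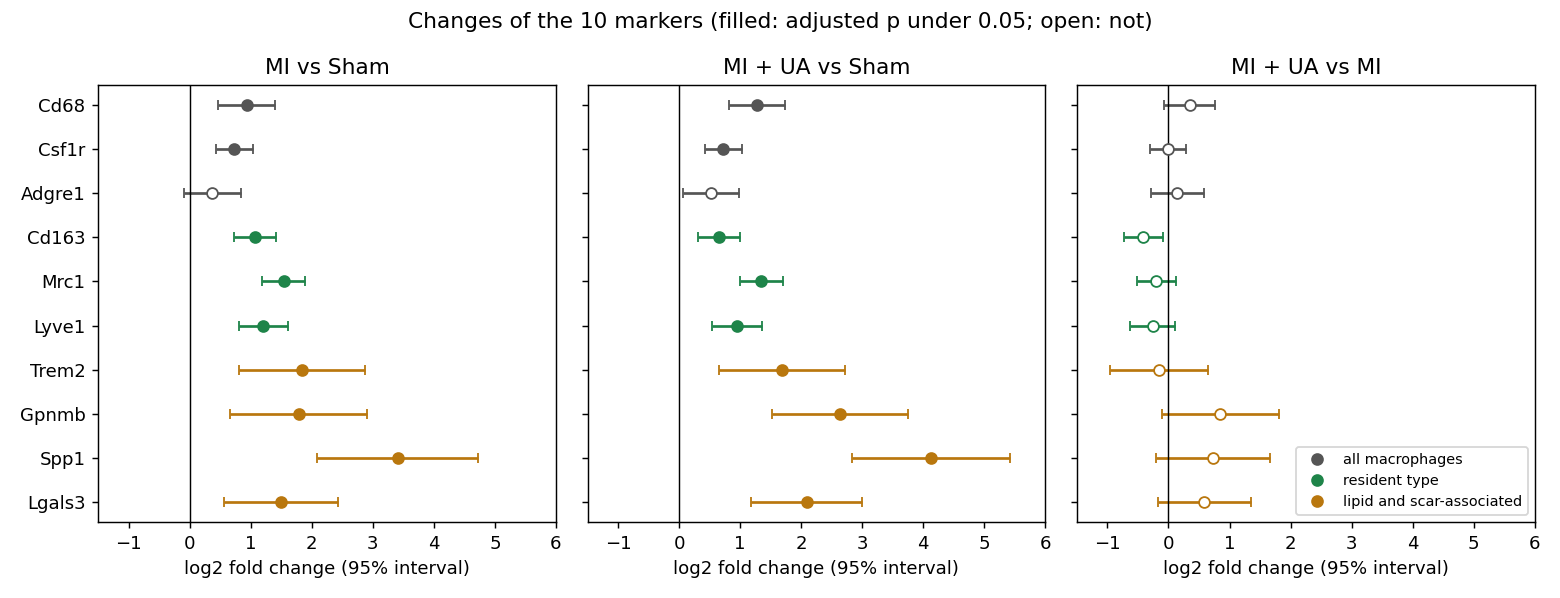
Log2 fold change with its 95% interval (x axis) of each marker (y axis) in MI versus Sham, MI + UA versus Sham and MI + UA versus MI, from edgeR, with filled points for adjusted p under 0.05. The intervals of the 4 lipid and scar-associated markers are wider than those of the 3 resident-type markers, and no point is filled in MI + UA versus MI.

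The question of whether Urolithin A changed the macrophage markers of infarcted hearts is addressed by MI + UA versus MI. None of the 10 passed the test, and the share of all genes called was 0% (0 of 18182 in edgeR and 0 in DESeq2). Of the 10, 1 had an unadjusted p under 0.05 in each tool, and 3.79% of all genes did in edgeR. The groups overlapped at all 10 markers, and at 2.35% of all genes they did not. The point estimates leaned in opposite directions in the subsets, with all 3 resident-type markers lower and 3 of the 4 lipid and scar-associated markers higher in MI + UA, but the groups overlapped at each.

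The marker with the small unadjusted p was Cd163. Its level in the MI + UA rats was 18.1, 23.4, 23.1 and 18.1 CPM, against 20.9 to 30.9 CPM in MI, and an MI + UA rat was the higher in 2 of the 16 pairs. Only rat 36 of the MI group was within the range of the treated rats. The log2 fold change was -0.41 (95% interval -0.73 to -0.094, edgeR adjusted p = 0.9998).

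Mrc1 was at 31.3, 45.7, 38.7 and 29.4 CPM in MI + UA, with 2 of the 4 rats below every MI rat and a log2 fold change of -0.20 (95% interval -0.52 to 0.12). Lyve1 was at 24.1, 25.7, 25.8 and 22.6 CPM, a narrow range inside that of MI, with a log2 fold change of -0.26 (95% interval -0.64 to 0.11). All 3 resident-type markers kept a log2 fold change below 0 in each of the 15 alternatives, from -0.53 to -0.24 for Cd163, from -0.33 to -0.015 for Mrc1 and from -0.45 to -0.15 for Lyve1, and none was called in any of them.

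Gpnmb was at 16.9, 67.3, 136 and 32.2 CPM in the MI + UA rats. Rat 64 had the highest level of any rat and rat 29 was below 3 of the 4 MI rats. The log2 fold change of 0.85 had a 95% interval from -0.11 to 1.81 (edgeR adjusted p = 0.9998), and over the alternatives it ranged from 0.15 without rat 64 to 1.55 without MI rat 89.

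Spp1 was at 25.4, 76.8, 81.9 and 14.3 CPM in MI + UA, with rats 58 and 64 above every MI rat and rat 66 below 3 of them. Its log2 fold change was 0.73 (95% interval -0.21 to 1.66), and 0.37 without rat 64. Lgals3, at 6.06, 15.9, 25.7 and 8.33 CPM, showed the same 2 rats highest, and its log2 fold change was 0.59 (95% interval -0.17 to 1.35), and 0.13 without rat 64. Without MI rat 89 the values were 1.44 for Spp1 and 1.04 for Lgals3. Trem2 was at 1.60, 1.03, 2.84 and 1.41 CPM with a log2 fold change of -0.15 (95% interval -0.96 to 0.65), and its highest treated rat was again rat 64.

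The general markers varied in the same rats. Cd68 was at 11.997, 17.7, 25.8 and 13.2 CPM in MI + UA (log2 fold change 0.35, 95% interval -0.069 to 0.76). Over the alternatives its log2 fold change ranged from 0.096 to 0.53. Adgre1 was at 7.14, 10.5, 15.8 and 10.4 CPM (log2 fold change 0.15, 95% interval -0.28 to 0.57). Csf1r was at 44.3, 48.2, 61.3 and 36.1 CPM, and its log2 fold change of -0.0079 (95% interval -0.30 to 0.28) was the closest to 0 of the 10. Rat 64 was the highest of the treated rats for each of these 3 genes. The sign for Csf1r, Adgre1 and Trem2 turned in some fits that left out 1 rat.

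Against Sham, the treated hearts kept raised macrophage markers. In MI + UA versus Sham, 9 of the 10 markers rose, where 5.16% of all genes were called higher, and the groups did not overlap at 9, which held for 7.83% of all genes. Log2 fold changes were 4.13 for Spp1, 2.63 for Gpnmb, 2.09 for Lgals3 and 1.69 for Trem2 among the lipid and scar-associated markers, with 1.93 for Gpnmb without rat 64. They were 1.34 for Mrc1, 0.95 for Lyve1 and 0.66 for Cd163 (edgeR adjusted p = 0.0147) among the resident-type markers, and 1.28 for Cd68 and 0.72 for Csf1r. Adgre1 had 0.52 and did not pass the test (edgeR adjusted p = 0.158).

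Trem2 and Cd163 were the least secure of these calls. Trem2 lost its call without any 1 of the 4 Sham rats and without MI + UA rat 29 or 64 (edgeR adjusted p from 0.0177 to 0.103 over all the alternatives). Cd163 lost it without Sham rat 17, its lowest Sham rat (edgeR adjusted p = 0.053, and from 0.00195 to 0.053 over all the alternatives), while Adgre1 gained one without MI + UA rat 29 (edgeR adjusted p = 0.0386, and from 0.0386 to 0.438 over all). This comparison shares its Sham rats with MI versus Sham and its treated rats with MI + UA versus MI, so the 3 sets of values are not independent.

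Rats of the infarcted groups lay farther apart in the lipid and scar-associated markers than in the resident-type markers. The coefficient of variation (SD over mean) of Gpnmb was 9.58% in Sham, 78.7% in MI and 84.0% in MI + UA, and that of Spp1 was 24.0%, 80.7% and 69.9%. Lgals3 had 57% in MI and 63.4% in MI + UA, and Trem2, whose low counts add counting error, 63.5% and 45.7%. The values of the resident-type markers were lower. Cd163 had 16.4% in MI and 14.5% in MI + UA, Mrc1 had 21.4% and 20.5%, and Lyve1 had 26.3% and 6.27%. The difference in spread was not tested.

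To set the subsets against each other in each rat, the mean log2 CPM over Cd163, Mrc1 and Lyve1 was subtracted from that over Trem2, Gpnmb, Spp1 and Lgals3. Only the change of this difference between rats carries meaning, since the genes differ in length. It was -2.27, -1.90, -2.47 and -2.46 in Sham, and -1.78, -2.95, -1.71 and -0.55 in MI. The MI rats lay on both sides of the Sham rats, with rat 57 below all of them and rats 36, 61 and 89 above. In MI + UA it was -1.55, -0.79, 0.086 and -1.39, above every Sham rat and overlapping with MI. These values are given without a test, as the markers were chosen with results of these data known.

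**Figure D3:**
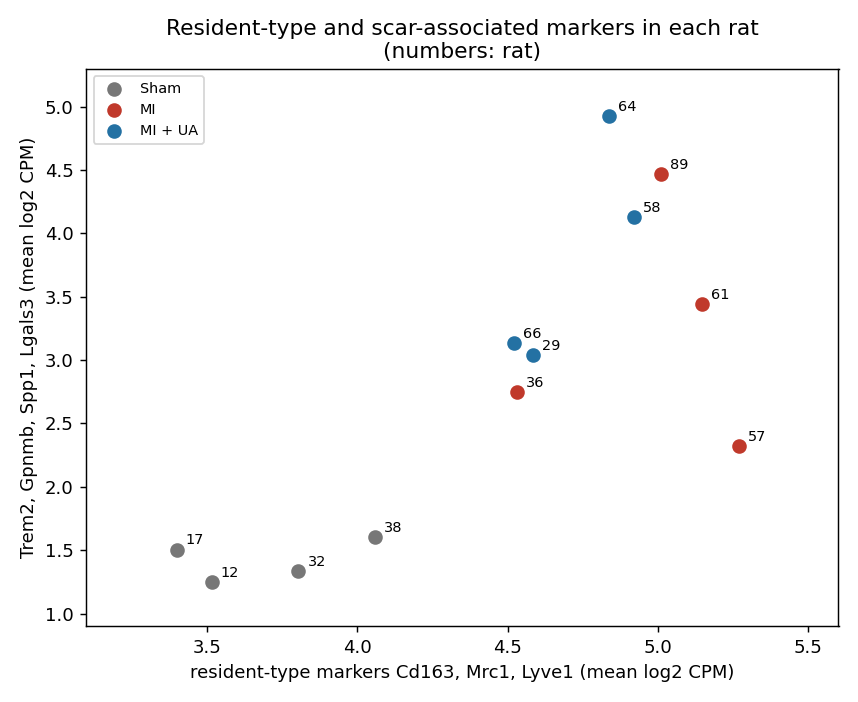
Mean log2 CPM of Cd163, Mrc1 and Lyve1 (x axis) against that of Trem2, Gpnmb, Spp1 and Lgals3 (y axis), with 1 labelled point per rat, coloured by group. The Sham rats lie together at the lower left, while infarcted rats span 2.32 to 4.92 on the y axis and 4.52 to 5.27 on the x axis, rat 57 having the highest x value and the lowest y value of the 8.

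Among the infarcted rats of each group, Gpnmb, Lgals3 and Spp1 put the rats in much the same order. The order was the same for the 3 genes in MI, and in MI + UA only rats 29 and 66 changed places, at Spp1. In Sham it was not shared, since rat 38 had the least Gpnmb and the most Lgals3 and Spp1. After each group's mean was taken off, Pearson's r between log2 levels over the 12 rats was 0.94 for Gpnmb with Lgals3 (Spearman's rho 0.90), 0.84 for Gpnmb with Spp1 (rho 0.84) and 0.83 for Spp1 with Lgals3 (rho 0.85). Without the 2 rats farthest from the median these were 0.89, 0.89 and 0.80. The 3 pairs with Trem2 ranged from 0.60 to 0.70 and rested on rats 64 and 89, since without them r was 0.15 with Gpnmb, 0.13 with Spp1 and 0.29 with Lgals3. Each r is 1 of 45 pairs and carries no p-value, and the genes of a pair share the depth and tissue make-up of each rat's library.

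Values of r were lower for pairs that crossed the subsets. The 3 pairs within Cd163, Mrc1 and Lyve1 had r from 0.47 to 0.76, and from 0.54 to 0.68 without the 2 rats farthest from the median of the first gene. The 12 pairs between the subsets had a median r of 0.24, from -0.12 to 0.42, and without 2 rats in the same way a median of 0.38, from -0.020 to 0.58, so that the pairs within and across the subsets then came closer together. Cd68 had r of 0.93 with Lgals3, 0.93 with Gpnmb, 0.80 with Spp1 and 0.72 with Trem2, and without rats 64 and 89 these were 0.86, 0.82, 0.66 and 0.23. Its r was 0.50 with Cd163, 0.37 with Mrc1 and 0.39 with Lyve1, and without the same rats 0.61, 0.64 and 0.48.

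**Figure D4:**
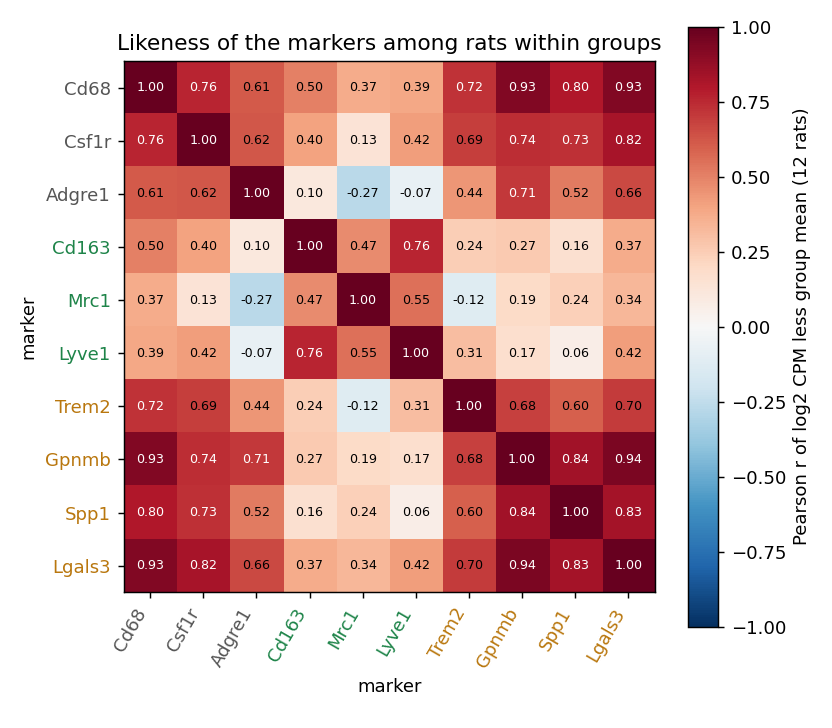
Pearson's r of log2 CPM less the group mean over 12 rats for each pair of markers (both axes), coloured from blue (-1) to red (1). The lower right block of scar-associated markers ranges from 0.60 to 0.94, and the block between them and the resident-type markers from -0.12 to 0.42.

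Among 10921 other genes with a symbol and an average log2 CPM of at least 1, those most like Gpnmb over the 12 rats were Anpep (r = 0.97), which encodes the myeloid surface enzyme aminopeptidase N, Clec7a (r = 0.97), the fungal glucan receptor Dectin-1, and Mmp12 (r = 0.96), macrophage elastase. Mmp12 had 0, 0, 1 and 1 reads in the Sham rats, 12, 2, 19 and 193 reads in the MI rats and 7, 143, 331 and 49 reads in the MI + UA rats. Rats 89, 58 and 64 thus held most of its reads, as they did those of Gpnmb relative to depth. Those most like Cd163 were Sv2a (r = 0.96), a synaptic vesicle protein gene, Npm1 (r = 0.92), a nucleolar protein gene, and St6galnac3 (r = 0.91), a sialyltransferase gene. None of these 3 passed the test in MI versus Sham, with log2 fold changes of 0.010, -0.022 and 0.090. Anpep, Clec7a and Mmp12 did not pass it either, with log2 fold changes of 0.65, 1.35 and 5.97 (edgeR adjusted p = 0.286, 0.0929 and 0.0780). The r values given here are the highest of many correlations over few rats.

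The summed level of fibroblast markers was highest in the same 3 infarcted rats as that of the 4 scar-associated markers, while single fibroblast genes differed in this. Of Pdgfra, Dcn, Col1a1, Postn and Tcf21, 3 of 5 rose in MI versus Sham (5.82% of all genes did), none was at 0, and their summed level ranged from 524 to 664 CPM in Sham, from 784 to 1297 CPM in MI and from 775 to 1302 CPM in MI + UA. The highest infarcted rats were 58, 89 and 64, and the lowest were 66 and 57. The summed level of the 4 scar-associated markers was also highest in rats 64, 58 and 89 (247, 161 and 151 CPM), but it was lowest in rats 57 and 36 (28.4 and 43.3 CPM). Col1a1 and Postn were highest in rats 58, 64 and 89 as well, whereas Dcn was highest in rats 89, 29 and 61, Pdgfra in rats 89, 64 and 29, and Tcf21 in rats 61, 64 and 89. The genes most like Spp1, looked at after its values were seen, were Col6a2 and Col6a1, which encode collagen VI chains, and Prrx1, a fibroblast transcription factor gene, with r of 0.97, 0.97 and 0.96. Cardiomyocyte markers (Myh6, Tnnt2, Actc1 and Ryr2) fell at 3 of 4 in MI versus Sham (5.53% of all genes fell), with a summed level from 12019.6 to 14929.8 CPM in Sham, from 8600.4 to 9271 CPM in MI and from 9203 to 11098 CPM in MI + UA. The part of fibroblast content and muscle content in the results for the 10 markers was not tested.

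Markers of neutrophils and T cells were at low levels in these sections. Of the neutrophil markers, S100a8 and Mpo had too few reads in total to be tested, and S100a9 was at most 0.257 CPM in any rat. The 4 T cell markers (Cd3e, Cd3d, Cd3g and Cd8a) summed to at most 5.65 CPM in any rat. In MI versus Sham, edgeR called 0 of the 4 T cell markers and 0 of the 1 neutrophil marker tested, against 5.82% of all genes higher and 5.53% lower. Among these markers, 1 T cell marker and no other had an unadjusted p under 0.05.

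Genes that work with the markers as ligands, adaptors and receptors were read next. Of 11 tested, 2 rose, where 5.82% of all genes did, and 0 fell in MI versus Sham, and their median was 0.44 on the log2 scale. Without Sham rat 17 or MI rat 89, 1 of the 11 was called, and 4 were with no filter on low counts or with the Sham and MI rats alone in the fit. Csf1, the main ligand of the Csf1r receptor, was at 28.97, 24.4, 29.6 and 29.6 CPM in Sham and at 41.2, 34.7, 46.4 and 39.4 CPM in MI. Its groups did not overlap, and its log2 fold change was 0.53 (standard error 0.11, edgeR adjusted p = 0.00326). Il34, the other ligand, had a log2 fold change of 0.63 and did not pass the test (edgeR adjusted p = 0.0727).

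Signals of Trem2 pass through the adaptors encoded by Tyrobp and Hcst and the kinase encoded by Syk. Syk rose by 0.78 in log2 units (standard error 0.21, edgeR adjusted p = 0.0174), from 6.15, 3.46, 5.72 and 6.20 CPM in Sham to 7.53, 7.68, 9.65 and 11.98 CPM in MI. Tyrobp had 0.44 and Hcst, at a low level, 1.18, neither past the threshold (edgeR adjusted p = 0.338 and 0.318). Of the receptors for osteopontin, Cd44 had a log2 fold change of 0.61 (edgeR adjusted p = 0.123), and the integrin genes Itgav, Itgb3 and Itgb5 had 0.11, 0.11 and 0.20. On the haemoglobin route of Cd163, Hp, which encodes haptoglobin, had 0.023, and Hmox1, the haem-degrading enzyme induced downstream, had -0.63 with every MI rat below every Sham rat (edgeR adjusted p = 0.0977). In MI + UA versus MI 0 of the 11 were called, and 1 had an unadjusted p under 0.05, as 3.79% of all genes did. Against Sham, 3 were called higher in MI + UA, as were 5.16% of all genes, and 0 were called without Sham rat 17 or MI + UA rat 64.

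A wider set of macrophage genes was read beside the markers. Of 15 general macrophage and myeloid genes tested (Tyrobp among them), 9 rose and 0 fell in MI versus Sham, where 5.82% of all genes rose and 5.53% fell, and their median was 0.91 on the log2 scale. The 3 with the largest changes among those called were Cx3cr1, the fractalkine receptor gene (1.38), Lyz2, which encodes lysozyme (1.34), and C1qb, a complement subunit gene (1.26). Lyz2 was at 42.5 to 61.8 CPM in Sham and at 104 to 221 CPM in MI, without overlap. Of 10 further resident macrophage genes tested, 7 rose (5.82% of all genes did) and 0 fell, with a median of 0.90. Vsig4 (1.27), Folr2 (1.22), F13a1 (1.06) and Stab1 (0.97) led them, and Stab1, a scavenger receptor gene, was at 34.1, 36.5, 37.4 and 43.4 CPM in Sham and at 63.0, 84.7, 79.6 and 71.0 CPM in MI.

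The wider lipid and scar-associated list moved in both directions. Of 14 further genes tested, 4 rose (5.82% of all genes did), 1 fell (5.53% of all genes did) and 9 did not pass the test, and their median was 0.31 on the log2 scale. Ctsk, a cathepsin gene (1.18), Apoe, an apolipoprotein gene (1.03), and Abca1, a cholesterol exporter gene (0.57), had the largest rises among those called, and Lpl, which encodes lipoprotein lipase and is also made by cardiomyocytes, fell by 0.55 on the log2 scale. Without Sham rat 32, MI rat 61 or MI rat 89, 3 of the 14 were called. Of 7 genes tested from the monocyte list, Cd14, a lipopolysaccharide co-receptor gene (1.40), and Vcan, which encodes the proteoglycan versican (1.24), rose, where 5.82% of all genes did. The other 5 did not pass the test. Among these, Ly6c, a surface antigen gene, was at 22.2 to 32.9 CPM in Sham and at 18.7 to 21.2 CPM in MI. Every MI rat was below every Sham rat, with a log2 fold change of -0.38 (edgeR adjusted p = 0.0529). Which cells of the section made Vcan and Ly6c was not tested. Ccr2, the chemokine receptor gene of recruited monocytes, named like Ly6c after its value was seen, had 0.55 and did not pass the test (edgeR adjusted p = 0.286).

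In MI + UA versus MI, 0 genes of these 4 lists were called by edgeR or DESeq2. Of the 10 resident macrophage genes, 9 had a negative log2 fold change, with a median of -0.13, and 1 gene of the 4 lists, a resident one, had an unadjusted p under 0.05, against 3.79% of all genes. The 14 lipid and scar-associated genes split 7 to 7, with a median of 0.00099. The median over all genes was 0.0047. In MI + UA versus Sham, 10 of the 15 general genes, 4 of the 10 resident genes and 2 of the 7 monocyte genes were called higher, and of the lipid and scar-associated genes 4 were higher and 1 lower. Of all genes, 5.16% were called higher and 4.27% lower in this comparison. Without MI + UA rat 64, 2 of the 10 resident genes were called.

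**Figure D5:**
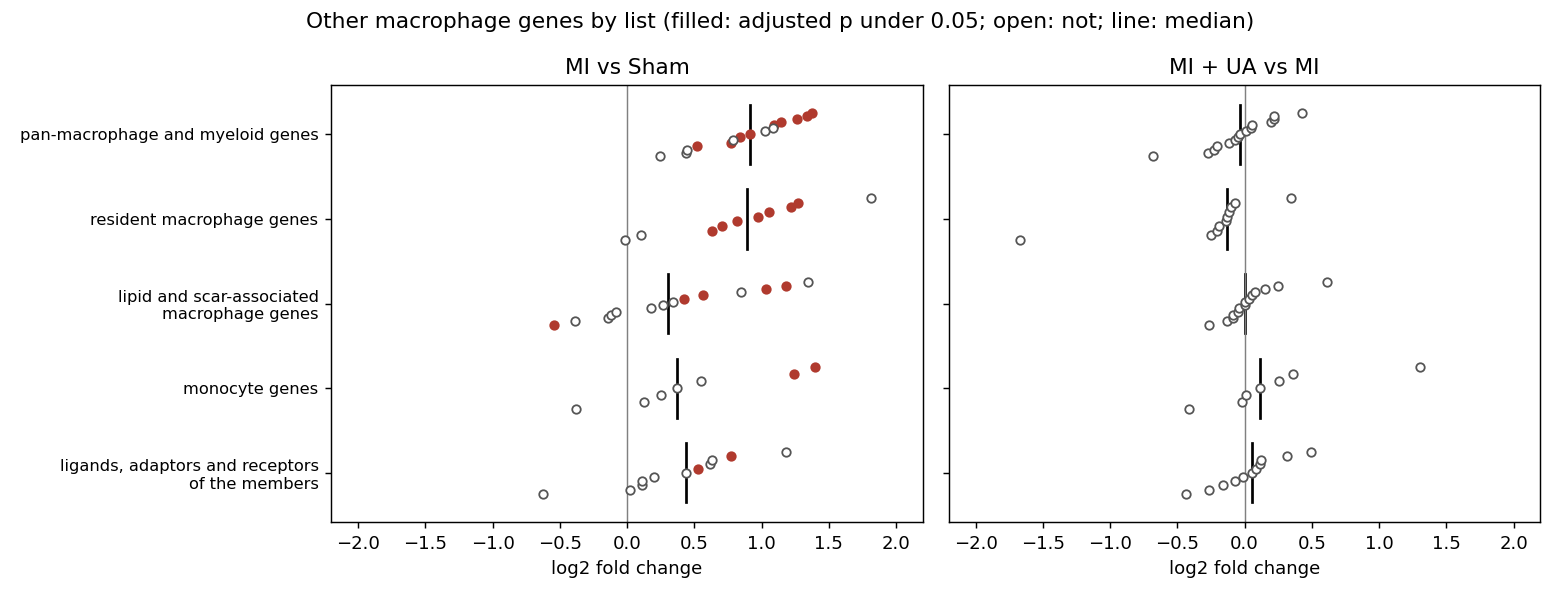
Log2 fold change (x axis) of each tested gene in 5 lists (y axis) in MI versus Sham and MI + UA versus MI, with filled points for edgeR adjusted p under 0.05, open points otherwise and a line at the list's median. In MI versus Sham the medians run from 0.31 to 0.91, and in MI + UA versus MI no point is filled.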

How the data were processed

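RNA was depleted of ribosomal RNA and sequenced in pairs from strand-specific libraries of 12 rats. The authors mapped reads to mRatBN7.2 with STAR 2.6.1c and deposited HTSeq counts of reads per Ensembl gene, not normalized. The strand setting of the counting is not given in the sources used here. The authors left out 1 further MI + UA library, which was not analysed here. The 10 markers, gene lists and motifs were chosen with earlier results of these data known.

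From the deposited counts, 5 summary rows were left out, genes were kept at a minimum total of 10 counts, and 3 groups were fitted together in edgeR 4.0.16 (TMM, quasi-likelihood test, R 4.3.3), with Benjamini-Hochberg adjustment over 18182 genes. CPM are TMM-scaled, and log2 CPM add a prior count of 1. The p-values rest on a spread estimated for each gene over the 3 groups of 4 rats together. Each comparison therefore also draws on the spread of the group left out of it. On simulated counts of MI versus Sham (17868 genes), 23.9%, 83.6% and 98.5% of log2 changes of 0.5, 1 and 2 were recovered, with 4 of 17668 unchanged genes called. The changes were placed only in genes with a higher mean count than Trem2, so these shares do not apply to Trem2 or to other genes with few reads.

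Text names all 10 markers, all partner genes, up to 4 genes called in MI versus Sham with the largest change per other list (1 is not reported here), and the 3 genes most like Cd163 and Gpnmb. Alternatives were DESeq2 1.42.0, its size factors in edgeR, TMM without mitochondrially encoded genes, 2 other filters, 2-group fits, rat 66 counted in MI, and leaving out each rat. Promoters came from RefSeq (GRCr8), and their coordinates are not on the build of the counts. Figures used matplotlib 3.10.9.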

Additional observations from a re-analysis of the deposited data

Results flagged for a closer look

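In 30 groups of 4 rats (10 markers in 3 groups), 2 held a rat that stood apart from the other 3 by Dixon's criterion at the 95% level on log2 CPM, and chance gives about 1.5. Adgre1 was high in Sham rat 32, at 9.59 CPM against 6.77 to 6.91 CPM in the other Sham rats. On the log2 scale this was 3.28 against 2.78 to 2.81, a gap of 0.941 of the group's range. Lyve1 was low in MI rat 36, at 18.1 CPM against 31.8 to 34.7 CPM in the other MI rats. On the log2 scale this was 4.18 against 4.99 to 5.12, a gap of 0.867 of the range.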

How the results depend on the processing

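Of the 10 markers, 9 were called in MI versus Sham with every setting except DESeq2 (8) and leave-one-out fits (6 to 9). In MI + UA versus Sham 9 were called with every setting and 7 to 9 in leave-one-out fits, and in MI + UA versus MI 0 were called in any. Moving rat 66 to the MI group turned the log2 change of MI + UA against MI from -0.0079 to 0.18 for Csf1r and from -0.15 to 0.026 for Trem2. Over leave-one-out fits it ranged from -0.15 to 0.11 for Csf1r, from -0.43 to 0.38 for Trem2 and from -0.062 to 0.32 for Adgre1. The cause was not tested. In MI versus Sham, 4 of the 11 partner genes were called with no filter on low counts or with only the groups compared in the fit, and 1 without Sham rat 17 or MI rat 89, against 2 in the main setting. In MI + UA versus Sham, 0 of the 11 were called without Sham rat 17 or MI + UA rat 64, against 3. No paired analysis was possible because each rat belonged to a single group. No scaling moved the median of all genes by over 0.1. Depth limits Trem2 most, with 3 to 5 reads per Sham rat.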
